A study of Mus musculus with 4 samples.

Results

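The Eph receptors are receptor tyrosine kinases, and the ephrins are their ligands, which stay attached to the membrane of a neighbouring cell. Binding therefore needs cell contact and can signal in both cells, forward through the receptor kinase and in reverse through the ephrin. Ephrin-A ligands are held by a lipid anchor and mainly bind EphA receptors, whereas ephrin-B ligands span the membrane and mainly bind EphB receptors. The family is known for sorting cells and setting tissue boundaries, EphB4 and ephrin-B2 for marking venous and arterial endothelium, and EphA2 for its frequent high expression in epithelial tumours.

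Described here are 10 genes of this family, Epha1, Epha2, Epha4, Ephb2, Ephb3, Ephb4, Efna1, Efna5, Efnb1 and Efnb2, out of the 24391 genes counted in each sample. They were picked by symbol, to ask whether higher levels of Epha4 and Epha2 seen in the K-Ras Mll4-/- tumours extend to other Eph and ephrin genes. The difference of Epha4 and Epha2 between the groups was thus what drew attention to the list, and it is given as a description, without a test. The other 12 Eph and ephrin genes of the mouse were read beside them.

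The samples were 4 from mouse lung tumours, 2 labelled K-Ras (K-Ras LSL-G12D, a mutant K-Ras allele kept silent by a stop cassette until Cre recombinase removes it) and 2 labelled K-Ras Mll4-/- (the same allele with floxed Mll4). Mll4, now Kmt2d, encodes a histone methyltransferase that acts mainly at enhancers. All 4 samples thus share the K-Ras mutation, and all were digested to single cells and depleted of cells bearing CD45, the common leukocyte antigen, before total RNA was taken. How Cre was delivered, which cells it reached, and the age of the mice are not given in the sources used here.

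Reads assigned to genes ranged from 26683033 to 36677987 per sample, and 3 reads, the floor used here, corresponded to 0.0818 to 0.112 CPM (a gene's reads scaled to a common library size), for counting error only. Kmt2d was at 367 and 317 CPM in K-Ras Mll4-/- tumours and at 395 and 526 CPM in K-Ras tumours, a log2 fold change of -0.43 (SE 0.21, edgeR quasi-likelihood adjusted p = 0.297), or -0.07 with offsets for GC content and transcript length. The counts are totals per gene and do not resolve a deleted exon, so the Mll4 loss is taken from the labels. Nothing in the labels says that replicates came from separate mice, and the p-values measure only the spread between these samples, which may be technical.

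In short, the 3 EphA receptors and Ephb3 had mean levels 1.93 to 2.75 times as high in K-Ras Mll4-/- tumours, Ephb4 was lower, and of the 4 ligands Efna5 was higher, Efnb1 was lower and Efna1 and Efnb2 overlapped between the groups. Beside Epha4 and Epha2, 3 of the other 8 genes (Epha1, Ephb3 and Efna5) were higher without overlap of the groups, where 29.9% of all genes tested were. None of the 8 passed the main test after adjustment.

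Levels below are TMM-normalised CPM, that is, CPM after scaling between libraries, and a log2 fold change is K-Ras Mll4-/- minus K-Ras with its standard error. A gene was called at an adjusted p under 0.05 in the edgeR quasi-likelihood test, adjusted over the 16001 genes that passed the count filter. All 10 genes passed that filter. Tests are counted over the 8 genes other than Epha4 and Epha2. Of the 8, 0 were called, where 0.0375% of all genes tested were called. At an unadjusted p under 0.05 stood 3 of the 8 (21.8% of all genes), of which 2 were higher and 1 lower (11.3% and 10.4% of all genes). DESeq2 called 2 higher (Efna5 and Epha1) and 1 lower (Ephb4) at an adjusted p under 0.05, where it called 5.23% and 5.18% of all genes. The edgeR likelihood ratio test called 3 of the 8, where it called 9.39% of all genes, and limma-voom called 0, where it called 0% of all genes. The unadjusted limma-voom p was under 0.05 for 3 higher and 1 lower, against 11.5% and 8.67% of all genes. The groups did not overlap for 5 of the 8 (58.3% of all genes), with 3 higher and 2 lower in K-Ras Mll4-/- tumours, where 29.9% of all genes were higher without overlap and 28.5% lower. Those counts are near the shares of all genes. The median log2 fold change was 0.65 over the 10, 0.13 over the 8 and -0.01 over all genes tested.

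The stretches of genome just upstream of 3 of the genes are shown: Epha4 and Epha2, whose higher levels prompted the list, and Ephb4, the receptor that was lower in both K-Ras Mll4-/- samples. Each is the 250 bases before the RefSeq transcription start (GRCm38.p6, a later build than the mm9 the submitters' processing notes name), 5′ to 3′ on the gene's own strand. Capitals mark the GC box (GGGCGG, or CCGCCC on the other strand) and the core of a cyclic AMP response element (ACGTCA, or TGACGT on the other strand), the latter searched for after the sequences had been read.
Epha4, chr1:77515089-77515338, minus strand: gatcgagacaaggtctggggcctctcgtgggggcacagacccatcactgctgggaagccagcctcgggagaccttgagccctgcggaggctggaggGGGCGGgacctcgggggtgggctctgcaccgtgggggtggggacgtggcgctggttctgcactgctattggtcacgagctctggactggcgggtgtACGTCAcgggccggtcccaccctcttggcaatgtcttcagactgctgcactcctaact
Epha2, chr4:141300971-141301220, plus strand: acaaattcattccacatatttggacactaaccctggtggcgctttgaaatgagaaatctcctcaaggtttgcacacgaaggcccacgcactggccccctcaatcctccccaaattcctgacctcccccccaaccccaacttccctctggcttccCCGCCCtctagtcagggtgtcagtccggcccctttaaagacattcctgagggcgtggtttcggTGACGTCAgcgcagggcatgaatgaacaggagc
Ephb4, chr5:137349859-137350108, plus strand: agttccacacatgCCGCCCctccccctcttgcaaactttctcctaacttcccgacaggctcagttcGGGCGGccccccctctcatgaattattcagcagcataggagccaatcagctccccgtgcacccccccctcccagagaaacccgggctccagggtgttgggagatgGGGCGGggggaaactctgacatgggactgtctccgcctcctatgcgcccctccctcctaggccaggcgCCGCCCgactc

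Both Epha4 and Epha2 held ACGTCA on one or the other strand, beginning at base -58 in Epha4 and within the full element TGACGTCA, beginning at base -33, in Epha2, counted from the start. None of the other 8 genes held ACGTCA in this window, while 6.47% of all 32851 promoters in the RefSeq table did, and 1.55% held the full TGACGTCA. As ACGTCA was searched for only after the sequences had been read, these shares are a description and not a test. The GC box was found in 8 of the 10 genes, including Ephb4 with 4 matches, against 32.7% of all promoters. Efna1 had more than 1 window (11 windows for the 10 genes), so counts per gene are set against shares per promoter. The bases after the start used for Efnb1 were not found in its GENCODE M21 transcripts, which leaves its window less certain. An AP-1 motif (TGANTCA) and an E-box (CACGTG) were found in 0 of the 10, against 6.75% and 6.02% of all promoters, both strands searched. Ephb2 alone held the ETS core CCGGAA (12% of all promoters), and Efnb2 alone held TATAAA (12.4%). The windows of the 3 genes shown were rich in G and C, at 66.0% in Epha4, 55.6% in Epha2 and 64.0% in Ephb4, where the median promoter had 52.4%. These matches describe letters in a window and say nothing of whether a factor binds there.

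Among the EphA receptors, Epha4, which is unusual in binding ligands of both ephrin classes, was at 122 and 219 CPM in K-Ras Mll4-/- tumours and at 62.8 and 61.4 CPM in K-Ras tumours. The K-Ras samples were nearly level, and both K-Ras Mll4-/- samples were above them, the second by far the higher. The group means were 171 ± 69.2 and 62.1 ± 0.979 CPM (SD, n = 2 each), and the log2 fold change was 1.46 (SE 0.31). Without K-Ras Mll4-/- replicate 2 it was 0.96.

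Epha2, the receptor most studied in carcinoma, was at 294 and 413 CPM in K-Ras Mll4-/- tumours and at 129.7 and 213 CPM in K-Ras tumours. The groups did not overlap, but each held one sample well above the other. The log2 fold change was 1.04 (SE 0.32), from group means of 353 ± 83.8 and 171 ± 58.9 CPM (SD, n = 2 each).

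Epha1, an epithelial receptor of the same class, had 38.4 and 53.6 CPM in K-Ras Mll4-/- samples and 15.8 and 26.5 CPM in K-Ras samples. The difference of 1.12 on the log2 scale (SE 0.32) missed the edgeR threshold (quasi-likelihood adjusted p = 0.183) and passed that of DESeq2 (adjusted p = 0.0273). Both K-Ras Mll4-/- samples lay above both K-Ras samples. Exons of Epha1 overlap those of Zyx, the zyxin gene, on the opposite strand (GENCODE M21). The strand setting of the counting is not given in the sources used here. It is thus not known whether reads in the overlap were counted for Epha1, for Zyx or for neither. Zyx was itself at 187 and 205 CPM against 127 and 108 CPM.

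The EphB receptors differed in direction among themselves. Ephb3, a receptor of intestinal and other epithelia, was at 62.2 and 79.0 CPM in K-Ras Mll4-/- samples against 24.2 and 49.0 CPM in K-Ras samples, with no overlap. The difference of 0.95 on the log2 scale (SE 0.38) passed neither test (edgeR quasi-likelihood adjusted p = 0.241, DESeq2 adjusted p = 0.110), and it was 0.53 without K-Ras replicate 1 and 1.53 without K-Ras replicate 2. Ephb2, which is close to Ephb3 in structure and ligands, had 13.3 and 5.86 CPM against 7.03 and 7.78 CPM, so one K-Ras Mll4-/- sample lay above both K-Ras samples and the other below both. This gave 0.36 on the log2 scale (SE 0.44, edgeR quasi-likelihood adjusted p = 0.654), which turned to -0.34 without K-Ras Mll4-/- replicate 1.

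Ephb4, the receptor of venous endothelium, went the other way. It was at 235 and 176 CPM in K-Ras Mll4-/- samples and at 358 and 374 CPM in K-Ras samples. Both K-Ras Mll4-/- samples lay below both K-Ras samples, and the means were 205 ± 41.8 and 366 ± 11.8 CPM (SD, n = 2 each). On the log2 scale the difference was -0.83 (SE 0.19), outside the edgeR threshold (quasi-likelihood adjusted p = 0.160) and inside that of DESeq2 (adjusted p = 0.00632). Exons of Ephb4 overlap those of Zan on the opposite strand, and Zan was at 0.372 to 3.51 CPM in the 4 samples.

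**Figure D1:**
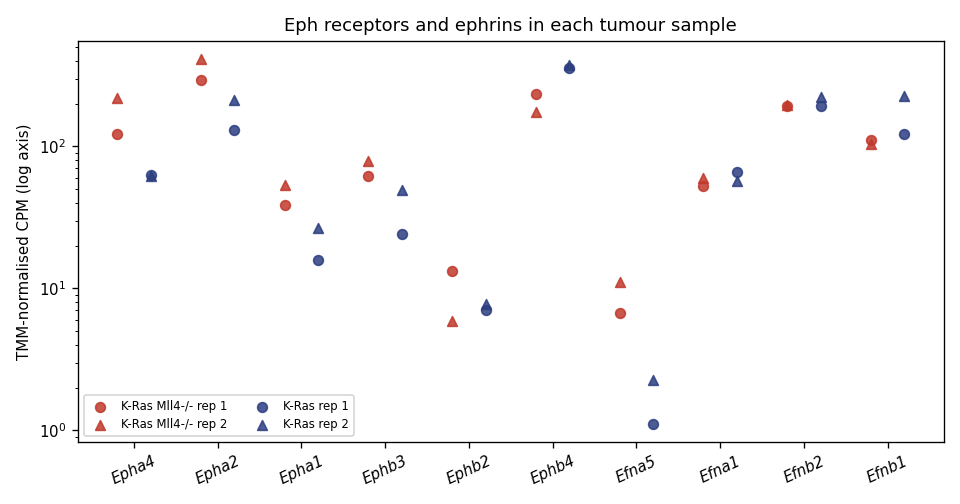
Level of each of the 10 genes in TMM-normalised CPM (y axis, log scale) in each of the 4 samples, with K-Ras Mll4-/- in red, K-Ras in blue, replicate 1 as circles and replicate 2 as triangles. Epha4, Epha2, Epha1, Ephb3 and Efna5 have both red points above both blue ones, Ephb4 and Efnb1 have both below, and Ephb2, Efna1 and Efnb2 overlap.

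Of the 4 ligands, Efna5 alone was higher without overlap. Efna5, a ligand of several EphA receptors, had 177 and 358 reads in the K-Ras Mll4-/- samples and 34 and 82 reads in K-Ras ones, which is 6.74 and 11.1 CPM against 1.11 and 2.27 CPM. It was the lowest of the 10 genes per kilobase in K-Ras tumours. At 2.39 (SE 0.47) it had the largest log2 fold change of the 10. edgeR did not call it (quasi-likelihood adjusted p = 0.151), while DESeq2 did (adjusted p = 4.75e-04).

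Efna1, a ligand of Epha2 that is abundant in endothelium and epithelium, was nearly level. Its 52.6 and 59.6 CPM in K-Ras Mll4-/- samples overlapped the 66.0 and 57.1 CPM of K-Ras samples, and the log2 difference was -0.13 (SE 0.15, edgeR quasi-likelihood adjusted p = 0.622). Efnb2, the arterial ligand of Ephb4, was at 193 and 195 CPM against 192 and 221 CPM, a log2 difference of -0.09 (SE 0.14, edgeR quasi-likelihood adjusted p = 0.726). Those are the narrowest spreads of the 10 genes, with 1.26-fold and 1.15-fold between the highest and the lowest sample. Efnb1, an X-linked ephrin, was at 111 and 104 CPM in K-Ras Mll4-/- samples and at 121 and 226 CPM in K-Ras samples. It did not overlap, but K-Ras replicate 2 carried most of the difference, as the log2 difference of -0.69 (SE 0.32, edgeR quasi-likelihood adjusted p = 0.289) was -0.19 without that sample.

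The other 12 family genes were at most at 30.5 CPM in any sample (Epha7). Of these, 8 passed the count filter, and their log2 fold changes ran from -0.90 for Epha3 to 0.39 for Efna4, with 3 above 0 and 5 below. Of the 8, 0 were called by the edgeR quasi-likelihood test (0.0375% of all genes) and 0 had an unadjusted edgeR p under 0.05 (21.8%). DESeq2 and limma-voom also called 0 of the 8, where they called 10.4% and 0% of all genes. Epha3, a receptor often found on stromal cells, was at 3.43 and 3.38 CPM against 9.03 and 3.74 CPM, and K-Ras replicate 1 alone set it apart (log2 fold change -0.90, or -0.13 without that sample). Epha7, a receptor best known from the nervous system, was at 19.8 and 15.2 CPM against 13.3 and 30.5 CPM. Efna4 had 4.23 and 5.27 CPM against 2.98 and 4.26 CPM, so the groups overlapped. The remaining 5, Ephb1, Ephb6, Efna2, Efna3 and Efnb3, overlapped between the groups, with log2 fold changes between -0.28 and 0.12.

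The 4 receptors below the filter, Epha5, Epha6, Epha8 and Epha10, had between 0 and 6 reads in any sample. Epha8 had 0 reads in both K-Ras Mll4-/- tumours but 6 and 5 in K-Ras tumours, and Epha6 had 0 in all 4. A count of 0 allows up to the 3-read floor, so absence cannot be claimed at this depth.

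**Figure D2:**
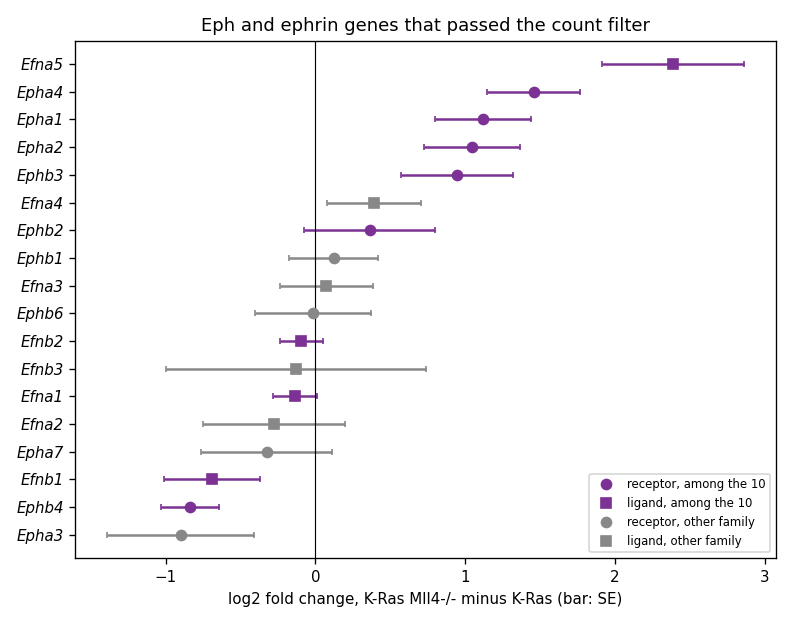
Log2 fold change (x axis, K-Ras Mll4-/- minus K-Ras, bars for 1 standard error) of the 18 Eph and ephrin genes that passed the count filter, with the 10 genes described here in purple, the other family genes in grey, receptors as circles and ligands as squares. Efna5 lies at 2.39, a group of Epha4, Epha1, Epha2 and Ephb3 between 0.95 and 1.46, and the remaining 13 genes between -0.90 and 0.39.

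Set against length, with CPM divided by the kilobases of the longest GENCODE M21 transcript, the order of the 10 genes differed between the groups. In K-Ras tumours the mean level was highest for Ephb4 (84.3 ± 2.71 CPM per kb), followed by Efnb1 (53.2 ± 22.6), Epha2 (43.8 ± 15.0), Efnb2 (43.1 ± 4.29) and Efna1 (37.7 ± 3.87). The ranges of those last 4 genes overlapped, so their order is not resolved, and Epha4 (9.81 ± 0.155), Ephb3 (7.71 ± 3.70) and Epha1 (6.46 ± 2.31) followed with ranges that overlapped for Epha4 with Ephb3 and for Ephb3 with Epha1. In K-Ras Mll4-/- tumours Epha2 came first at 90.3 ± 21.4 CPM per kb, above Ephb4 at 47.3 ± 9.62, and Epha4 at 27.0 ± 10.9 came close to Efna1 at 34.4 ± 3.05 (SD, n = 2 for each). Ephb2 and Efna5 were the lowest pair in both groups, at or under 2.75 CPM per kb in every sample.

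The 14 receptor genes summed to 181 and 219 CPM per kb in K-Ras Mll4-/- samples and to 141 and 178 in K-Ras samples. The shares of single receptors in that sum differed between the groups. Epha2 took 41.6% and 48.1% of the summed receptor level in K-Ras Mll4-/- samples against 23.4% and 30.7% in K-Ras samples, whereas Ephb4 took 30.0% and 18.5% against 58.3% and 48.6%. Within the 9 EphA receptors alone the shares of Epha1, Epha2 and Epha4 overlapped between the groups, and Epha2 made up 67.4 ± 1.67% of the EphA level in K-Ras Mll4-/- tumours and 67.3 ± 4.18% in K-Ras tumours. The minor shares of Epha3 (0.552% and 0.375% against 3.09% and 0.852%) and Epha7 (2.68% and 1.41% against 3.82% and 5.84%) did not overlap, nor did that of Epha8, at or under 0.081% throughout. Within the 5 EphB receptors, Ephb3 took 18.5% and 27.8% against 5.66% and 10.3%.

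**Figure D3:**
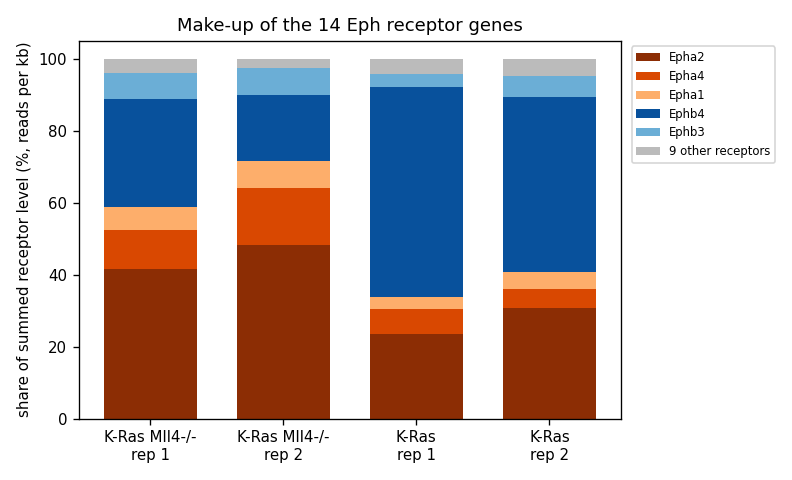
Share of the summed level of the 14 Eph receptor genes (y axis, percent, from CPM per kb) taken by each gene in each sample, EphA receptors in orange to brown, EphB receptors in blue and the 9 others in grey. Epha2 takes 41.6% and 48.1% in K-Ras Mll4-/- samples against 23.4% and 30.7% in K-Ras samples, and Ephb4 shrinks from 58.3% and 48.6% to 30.0% and 18.5%.

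Receptors were also set against a known ligand in the same sample, a ratio that no scaling between libraries can move. Per kb, there were 2.33 and 2.89 Epha2 reads for each Efna1 read in K-Ras Mll4-/- samples, and 0.819 and 1.56 in K-Ras samples. For Ephb4 and Efnb2 the ratio was 1.34 and 0.997 against 2.06 and 1.87. The ratio of Epha4 to Efnb2 was 0.478 and 0.854 against 0.248 and 0.210, and that of Ephb3 to Efnb1 was 0.384 and 0.521 against 0.137 and 0.149. For Epha2 and Efna5 the order was the opposite, with 45.0 and 38.3 against 120.2 and 96.7. The groups did not overlap for any of these 5 ratios, where they did not overlap for 58.3% of all single genes tested. The share among ratios of other gene pairs was not computed and need not equal that of single genes. Ratios that hold Epha4 or Epha2 carry the difference that drew attention to the list. All 5 are given as a description, without a test.

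The tumours also differed in markers of cell type, and these differences ran alongside those of the Eph genes. Of 8 epithelial markers, 7 were higher in K-Ras Mll4-/- samples without overlap, where 29.9% of all genes tested were, with Cldn4 lower. Their summed level was 3309 and 3613 CPM against 998 and 1622 CPM. Those 7 had log2 fold changes from 0.87 for Epcam, an epithelial adhesion protein, to 2.07 for Krt18, a keratin, with Cdh1, the epithelial cadherin, at 1.11. Epha2, Epha1, Epha4 and Ephb3 fall within that range. Of 10 endothelial markers, 8 were lower without overlap, where 28.5% of all genes tested were. The sum of the 10 was 4116 and 3164 CPM against 5765 and 5762 CPM. The Ephb4 difference of -0.83 lies within the range of those 8, from -0.61 for Robo4 to -0.99 for Cldn5. The rest of the list, Kdr at -0.17 and Emcn at 0.19, overlapped between the groups. In bulk RNA, fewer cells of a type and less RNA per cell cannot be told apart.

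The 10 genes were therefore also expressed per 1000 CPM of each marker list, a measure chosen after the data were seen. Dividing by a sum that is higher in one group lowers any gene in that group. The share of all genes that overlap on these measures was not computed. Per summed epithelial markers, Epha2 was at 88.9 and 114 in K-Ras Mll4-/- samples and at 130.0 and 131.3 in K-Ras samples, so it was lower in the former. Epha1 and Ephb3 were lower too, by 0.29 and 0.42 on the log2 scale, and Epha4 overlapped, at 36.8 and 60.7 against 62.9 and 37.9. Efna5 alone remained higher without overlap, at 2.04 and 3.07 against 1.11 and 1.399. Per summed endothelial markers, Ephb4 was at 57.0 and 55.5 against 62.0 and 65.0, a log2 difference of -0.17 where it had been -0.85 as the plain difference of mean log2 CPM. The sums give most weight to Krt8, Krt18, Cdh1, Pecam1 and Cdh5, among the most abundant markers of their lists. Krt18, Krt19 and Krt8 had log2 fold changes of 2.07, 1.89 and 1.41, where the median of the 8 epithelial markers was 1.10. The plain log2 fold changes of Epha1 and Epha2, at 1.12 and 1.04, lay close to that median. The part that cell content plays in the Eph differences was not tested.

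**Figure D4:**
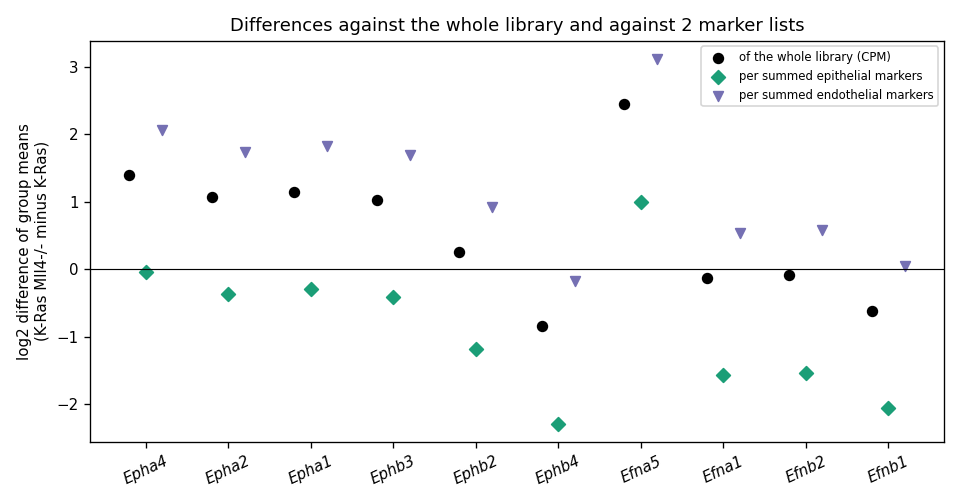
Difference of mean log2 values between groups (y axis, K-Ras Mll4-/- minus K-Ras, n = 2 each) for each of the 10 genes, as plain CPM (black), per summed epithelial markers (green diamonds) and per summed endothelial markers (purple triangles). Against the epithelial markers 9 of the 10 lie below 0 and Efna5 lies at 1.00. Against the endothelial markers Ephb4 lies at -0.17 and the other 9 lie above 0. Dividing by a list shifts all 10 genes by the same amount.

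The arterial and venous endothelial lists were lower in both K-Ras Mll4-/- samples in their sums, at 256 to 295 against 441 to 490 CPM and at 1114 to 1385 against 2385 to 3028 CPM, and so was the fibroblast list, at 838 to 853 against 1124 to 2468 CPM. All 7 ciliated cell markers were lower without overlap, where 28.5% of all genes tested were. Their sums were 92.2 and 98.9 CPM against 168 and 945 CPM. The highest of these was K-Ras replicate 2, the sample with the most Efnb1 and Epha7, which also had 3637 CPM of club cell markers against 593 to 776 CPM in the other 3. The alveolar type 2 sums overlapped (22466 to 34317 CPM over the 4 samples), as did the leukocyte sums (320 to 706 CPM) and the pericyte and smooth muscle sums (188 to 292 CPM). Ptprc, which encodes CD45, was at 269 and 171 CPM in K-Ras Mll4-/- samples and at 274 and 143 CPM in K-Ras samples. RNA of CD45 thus remained in all 4 samples after the depletion. Alveolar type 1 markers summed to 889 to 908 against 652 to 833 CPM, but did not move together. Of the 6, 3 were higher without overlap (Aqp5, Akap5 and Rtkn2). Ager was lower without overlap, at 211 and 157 against 340 and 448 CPM. The mesothelial sum, at 1229 to 1423 against 156 to 293 CPM, was nearly all Krt7 and Msln, which carcinomas are also known to express, while Wt1 was at or under 0.14 CPM. Neuroendocrine and neural markers summed to at most 11.0 CPM. The part of these lists in the Eph differences was not tested either.

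The wider pathway was read from 40 genes of Eph and ephrin signalling, all of which passed the filter. Of these, 0 were called by the edgeR quasi-likelihood test and 0 by limma-voom, where they called 0.0375% and 0% of all genes tested. At an unadjusted edgeR p under 0.05, 6 were higher and 7 lower, where 11.3% and 10.4% of all genes tested were, and DESeq2 called 3 higher and 5 lower, where it called 5.23% and 5.18% of all genes. The groups did not overlap for 8 that were higher and 17 that were lower, where 29.9% and 28.5% of all genes did not. The median log2 fold change of the 40 was -0.12.

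By rule, the 3 with the smallest p in each direction are named. Nck2, an adaptor that links receptors to actin, was at 65.1 and 79.6 CPM against 38.98 and 42.8 CPM (log2 fold change 0.82, SE 0.16). Arhgef5, a guanine nucleotide exchange factor of the ephexin family, was at 221 and 325 CPM against 132 and 149 CPM (0.96, SE 0.23). Adam10, a membrane protease that can shed ephrins, was at 261 and 326 CPM against 204 and 174 CPM (0.63, SE 0.18). On the lower side, Rgs3, whose product can bind the tail of ephrin-B ligands, was at 82.8 and 91.7 CPM against 167 and 138 CPM (-0.80, SE 0.16). Arhgef15, the ephexin of endothelial cells, was at 133 and 113 CPM against 229 and 189 CPM (-0.77, SE 0.17). Kalrn, an exchange factor for Rac, was at 62.6 and 45.3 CPM against 93.9 and 110.4 CPM (-0.92, SE 0.21). The groups did not overlap for any of these 6, and their edgeR quasi-likelihood adjusted p values ran from 0.143 to 0.183.

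Finally, genes with the most similar pattern over the 4 samples were sought among the 14473 genes with a mean of at least 1 CPM, by the Euclidean distance between log2 CPM values centred on each gene's mean. Outside the 10 genes, nearest to Epha4 were Ugdh, Slit2 and St3gal4, at distances of 0.0850, 0.117 and 0.148. Nearest to Epha2 were 0610040J01Rik, Plxna4 and Esrp1, at 0.0765, 0.0768 and 0.0845. Epha1 was as near to Epha2, at 0.0821, and Ephb3 followed at 0.241, whereas Epha4 was 0.672 away: its K-Ras samples were level where those of Epha2 were not.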

How the data were processed

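The authors deposited unnormalised counts of reads for each gene symbol in every sample, closed by 5 tally lines that name no gene. Per the submitters' processing notes, CASAVA 1.4, STAR, HTSeq and mm9 were used; the annotation and the strand setting are not given in the sources used here. The tallied lines were left out of library sizes. They held 60.5% and 60.1% of all tallied and counted alignments in K-Ras Mll4-/- samples and 65.6% and 64.5% in K-Ras samples. The groups thus differed in this share without overlap, and its part in the differences of genes was not tested. Counts were fitted with edgeR 4.0.16 in R 4.3.3, with the default count filter, TMM scaling and the robust quasi-likelihood test (legacy = FALSE), for K-Ras Mll4-/- minus K-Ras over all 4 samples, with Benjamini-Hochberg adjustment. The SE is the fold change over the square root of F. DESeq2 1.42.0, limma 3.58.1, other scalings and filters, the replicate number as a block, GC content and length offsets (mgcv 1.9.3), and leaving out each sample were the alternatives. The fits were tested on simulated counts.

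The 10 genes, the partner genes and the marker lists were chosen with earlier results of these data known. Named were all 22 family genes, Kmt2d, the 3 partners with the smallest p in each direction, and the 3 genes nearest in pattern to Epha4 and to Epha2; genes named beside these were picked after their values were seen. Promoters are from RefSeq (GRCm38.p6), matched by symbol for all 10 genes. Of the 16001 genes tested, 15862 had a length and GC content from GENCODE M21. A gene of the marker lists is left out of the text and is not reported here.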

Additional observations from a re-analysis of the deposited data

How the results depend on the processing

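Against 6 genes called of all tested, 10 were called without a count filter, 1601 by DESeq2, 1503 by the edgeR likelihood ratio test, 0 by limma-voom, and 0 to 470 with 1 sample left out (470 without K-Ras replicate 1), where a lone sample was assumed to vary like the other group. Calls are again counted over the 8 genes other than Epha4 and Epha2, whose difference chose the list. The main fit called 0 of the 8. Efna5, Epha1 and Ephb4 passed with DESeq2, as 10.4% of all genes did. The same genes passed in the likelihood ratio test, as 9.39% of all genes did. The labels state no mouse or batch behind a replicate number, and deviations of same-numbered samples correlated at 0.21 across genes. With the replicate block, 255 genes (1.59%) were called, and Efna5 was the only one of the 8 called. With the block and GC and length offsets together, 411 of the 16001 genes tested were called. Of the 8, Epha1, Ephb3 and Efna5 were called in that fit. Over all 10 its count was 4, which takes in Epha4 or Epha2 and so is not a test of the list. The median log2 fold change of the 10 was 0.90 with those offsets, 0.87 with the block added, and 0.41 to 0.92 with 1 sample left out (0.41 without K-Ras replicate 1). Of the 10, 5 to 6 were then higher without overlap, Epha4 and Epha2 among them. Groups overlap less readily when 1 of them holds 1 sample. The share of all genes without overlap was not computed for these fits.

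Per summed epithelial markers, added after seeing the data, the median was -0.80, 1 gene was higher without overlap and 8 were lower, and Epha1 (-0.29), Epha2 (-0.37), Epha4 (-0.047), Ephb2 (-1.19) and Ephb3 (-0.42) turned sign. Per summed endothelial markers the median was 1.32, 8 were higher without overlap, and Efna1 (0.54), Efnb1 (0.054) and Efnb2 (0.59) turned sign. In K-Ras Mll4-/- samples the epithelial sum was higher and the endothelial sum lower, so dividing by them lowers or raises any gene there. These counts include Epha4 and Epha2, and the share of all genes on these measures was not computed. Of the low genes, Ephb6 turned to 0.019 with limma-voom, 0.042 with the block, 0.23 with the offsets and 0.27 with both, and Efnb3 to 0.40, 0.059, 0.076 and 0.26. With 1 sample left out, sign turned in the ranges of Ephb2 (-0.34 to 0.83), Efna3 (-0.13 to 0.28), Ephb1 (-0.013 to 0.23), Efna2 (-0.77 to 0.12), Epha7 (-0.80 to 0.38), Ephb6 (-0.41 to 0.52) and Efnb3 (-0.88 to 1.84). The cause of these moves was not tested. Efnb3 had 6 to 48 reads a sample and Efna5 34 to 358, which limits their precision.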
